A study of Mus musculus with 16 samples.

Results

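Mesodermal cells sorted on day 4 of culture were compared with the embryonic stem (ES) cells they were derived from. The comparison set 2 arrays of day 4 cells against 2 of ES cells, 4 of the 16 arrays of the series. The spread used in testing was estimated over all 16 arrays. It covered 18716 genes, each represented by its brightest probe set that carries a single gene symbol. All cells were of a mouse line that the labels call E14.1, of 129/Ola background, with the reporters TGFP/+; Foxa2tagRFP/+, so that every group carried both knock-in alleles. ES cells (day 0) were kept on mitomycin-treated embryonic fibroblasts in serum with leukaemia inhibitory factor, and no sort is named for them. The day 4 cells grew for 4 days on feeders that express Wnt3a, in a defined medium that held activin A at 3 ng/ml and Bmp4 at 7.5 ng/ml, and were isolated by fluorescence-activated sorting as Foxa2-/T+/CD24 negative. They are called MES below. Medium, feeders, sorting, days in culture and cell type change together between the groups, so their parts in any difference cannot be told apart.

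Gastrulation turns the epiblast, a pluripotent epithelium, into germ layers. Cells that pass through the primitive streak under Nodal, Wnt and Bmp signals switch on T-box and homeobox factors, lose epithelial junctions in an epithelial-to-mesenchymal transition (EMT) and spread as mesoderm, whose posterior and lateral parts give heart, blood, vessels and allantois. ES cells correspond to the earlier, naive epiblast and hold a network of pluripotency factors that the streak cells progressively dismantle.

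The label of the sorted cells was set against 7 mesoderm markers, chosen with earlier results of these data known. Hand1, Foxf1, Mesp1, Pdgfra, Kdr, Tbx6 and Snai1 were all higher in MES than in ES cells, by 1.83 (Pdgfra) to 5.62 (Foxf1) on the log2 scale. In wider lists, 8 of 19 lateral and cardiac genes and 10 of 16 paraxial genes were not called, and 1 paraxial gene fell. Of the endoderm markers that are no part of the sort, Sox17 differed by 0.55, Cer1 by 0.24 and Hhex by 0.78. None exceeded the difference of 1 that a call needs. In a wider list of 16 endoderm genes 2 rose, Lhx1 by 4.13 and Cpm by 2.20, and 3 fell. Foxa2 and Cd24a belong to the sort itself, so their levels are a check of the gate. Foxa2 gave 7.32 and 7.71 on the ES arrays and 7.86 and 7.78 on the MES arrays, and Cd24a gave 12.11 and 11.75 against 11.04 and 11.12. Cd24a was called lower when ES replicate 2 was left out (-1.03).

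Signals are log2 values of the array's fluorescence, so a difference of 1 is a doubling. A gene is called higher or lower, or said to have risen or fallen, where the difference exceeded 1 and the adjusted p of limma's moderated test was below 0.05. By this rule 484 genes (2.59% of those tested) were higher in MES and 843 genes (4.5%) were lower. Differences above 2 were found for 103 higher and 256 lower genes, and differences above 4 for 13 higher and 26 lower genes. A further 3545 genes passed the adjusted p with a difference of 1 or less, and the 2 arrays of one group lay wholly above those of the other for 61.1% of all genes. The median difference over all genes was 0.04. Replicates correlated at 0.991 for ES cells and 0.993 for MES, and MES with ES arrays at 0.966 to 0.97. With 2 arrays a group, labelled as biological replicates, precision is limited by how few arrays there are.

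**Figure D1:**
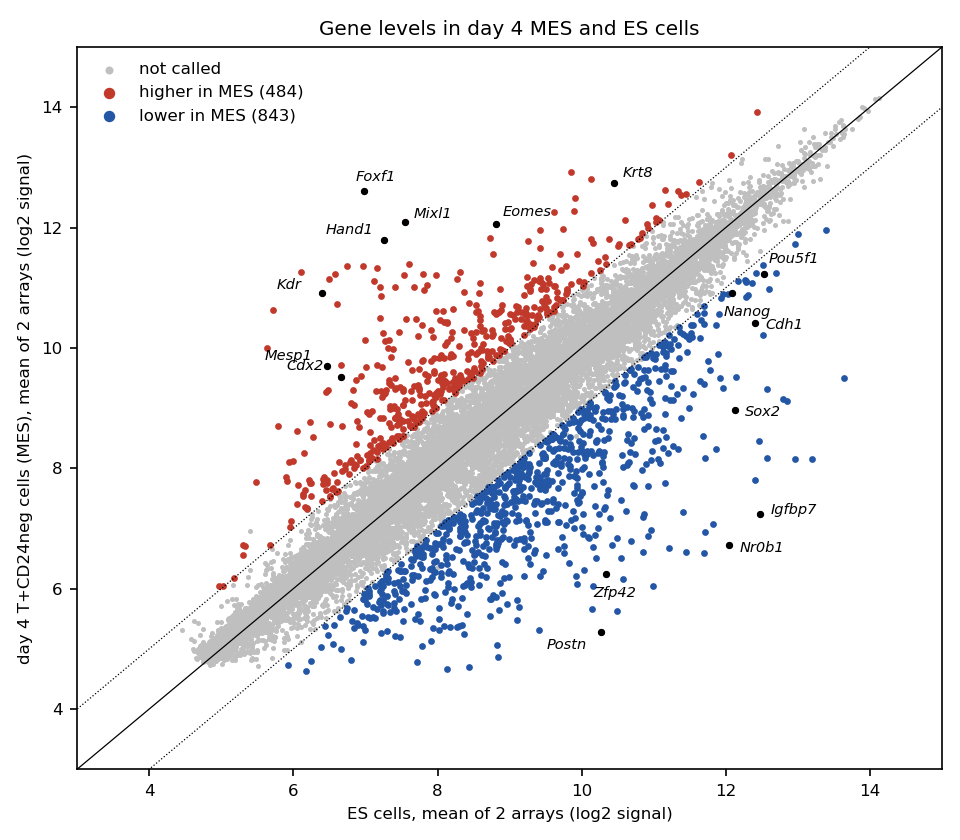
Mean log2 signal of 18716 genes in ES cells (horizontal axis) and in day 4 MES (vertical axis), 2 arrays each. Red points are the 484 genes called higher in MES, blue points the 843 called lower, grey points were not called, dotted lines mark a difference of 1. Foxf1, Mixl1 and Hand1 lie far above the diagonal, and Nr0b1, Igfbp7 and Postn far below it.

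Of the 484 risen genes, 195 were higher on both MES arrays than on each of the other 14 arrays of the series. Among the 843 fallen genes, 580 were lower on all 14 arrays of sorted cells than on both ES arrays. Risen and fallen genes were chosen by their difference from ES cells, which favours such patterns. Over all 18716 genes, 651 were highest on the 2 MES arrays and 1865 were lower on all sorted arrays than on both ES arrays. The 14 sorted arrays include the endodermal ones, and also the 2 MES arrays, which took part in that choice.

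The ES arrays also carried transcripts typical of fibroblasts. Of 28 fibroblast genes listed, 26 were tested, 17 were lower in MES, 1 (Pdgfrb) was higher, and the median difference was -1.64. Periostin (Postn), a matrix protein of connective tissue, gave 10.36 and 10.18 in ES cells and 5.15 and 5.41 in MES. Decorin (Dcn), a collagen-binding proteoglycan, gave 10.80 and 11.18 against 6.10 and 6.0. The collagen cross-linking enzyme Lox gave 10.77 and 10.21 against 5.45 and 5.80. On all 14 sorted arrays, 15 of the 17 fallen fibroblast genes were lower than on both ES arrays. Of all 843 fallen genes, 580 were so too, and their choice by a fall from the ES arrays favours this pattern.

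Fibroblast transcripts and pluripotency transcripts were unequal between the 2 ES arrays. The mean level of the fibroblast list was 9.75 on ES replicate 1 and 9.33 on replicate 2, against 7.04 to 7.65 on the sorted arrays, and 22 of its 26 members were higher on replicate 1. All 15 naive pluripotency genes were lower on replicate 1, by a median of 0.64. Without replicate 1, 14 fibroblast and 14 naive genes were called lower in MES, and without replicate 2, 18 and 12. The summed linear signal of the fibroblast list (in units of 1000) was 31.4 and 23.8 on the ES arrays and 10.9 and 10.8 in MES. Xist, the RNA of the inactive X chromosome, was looked at after its values were seen. It gave 8.54 and 8.05 on the ES arrays, 5.39 and 5.37 in MES, and fell by 2.92 (adjusted p = 4.5e-07). How much of any fall reflects feeder RNA in the ES arrays was not tested, and in bulk RNA fewer cells of a type and less RNA per cell cannot be told apart.

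**Figure D2:**
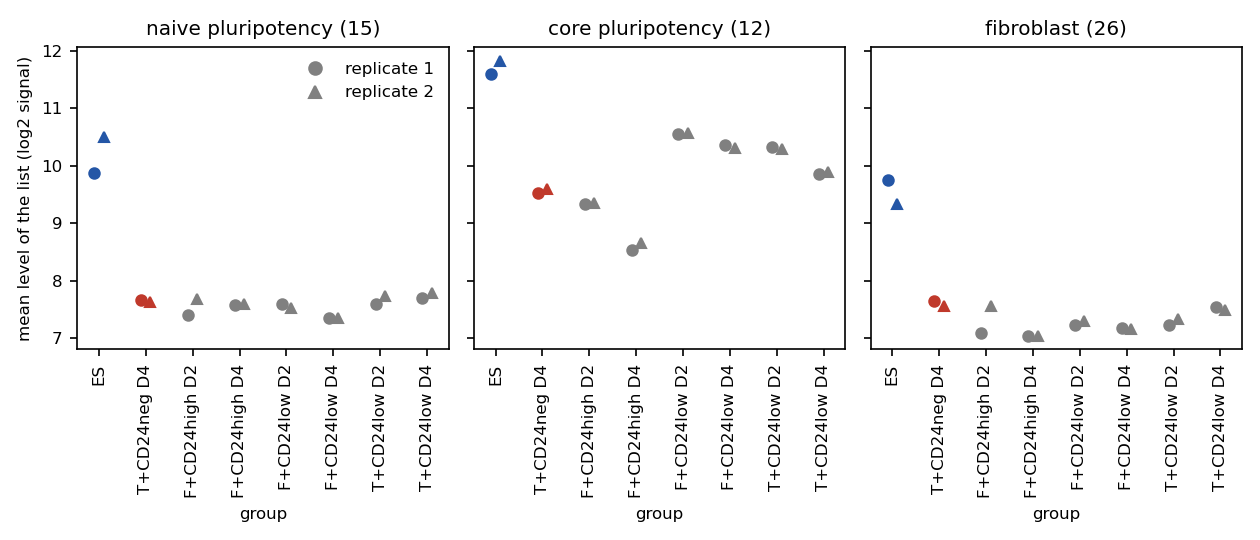
Mean log2 signal of 3 gene lists (members tested in brackets) on each of the 16 arrays, by group, ES cells in blue, day 4 MES in red, other sorted groups in grey, circles replicate 1 and triangles replicate 2. The naive pluripotency list and the fibroblast list are both high on the ES arrays only, in opposite order between the 2 replicates.

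Of 12 primitive streak genes tested, 9 were higher in MES and none was lower, with a median difference of 2.16. Some genes are on several lists, such as Mixl1 and Eomes, which are also among the Nodal targets below. Counts of different lists can therefore hold the same gene. Mixl1, a homeobox factor of the streak, gave 7.55 and 7.55 in ES cells and 12.00 and 12.17 in MES, a difference of 4.53 ± 0.17 (SE, n = 2 and 2, adjusted p = 1.1e-08 in limma). Eomes, the T-box factor that starts both cardiac mesoderm and endoderm, gave 9.01 and 8.60 against 12.05 and 12.06. In both genes the arrays of MES stood above those of ES cells, as in 34.4% of all genes. Mesp1, which marks the earliest cardiovascular mesoderm, gave 6.50 and 6.44 against 9.66 and 9.74 (difference 3.23). The LIM homeobox factor Lhx1 rose by 4.13, the ligand Wnt3 by 2.85 and the ligand Fgf8, needed for cells to leave the streak, by 2.78. Fgf3, Evx1 and Sp5 rose by 1.54, 1.47 and 1.33. Goosecoid (Gsc), Wnt3a and Nodal differed by 0.02, 0.34 and -0.85 and were not called.

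Lateral and cardiac mesoderm factors held 4 of the 15 highest called genes (Foxf1, Hand1, Kdr and Msx2). Of 19 tested (20 listed), 11 were higher, none was lower, and the median was 1.83. Foxf1, a forkhead factor of splanchnic and extra-embryonic mesoderm, gave 7.18 and 6.79 in ES cells and 12.53 and 12.68 in MES, the highest difference of the called genes at 5.62 ± 0.14 (SE, adjusted p = 6.5e-10 in limma). A further probe set of Foxf1 differed by 4.12. Hand1, a basic helix-loop-helix factor of lateral mesoderm and heart, gave 7.2 and 7.32 against 11.77 and 11.80. Neither gene showed any overlap between the groups, which the choice of the 15 highest genes required. The vascular endothelial growth factor receptor Kdr, the surface marker of early cardiovascular progenitors, gave 6.36 and 6.43 against 10.88 and 10.95. Gata4 rose by 3.42 and Gata6 by 3.24, both zinc finger factors shared by heart mesoderm and endoderm. Isl1, Tbx20, Tbx3 and Pdgfra rose by 2.82, 2.43, 1.80 and 1.83. Later cardiac genes were not called, with Tbx5 at 0.78, Hand2 at 0.81, Myocd at 0.93 and Nkx2-5 at 0.06.

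Paraxial genes moved less evenly, with 5 of 16 higher, 1 lower and a median of 0.31. Rspo3, a secreted Wnt amplifier, gave 7.34 and 6.58 in ES cells and 11.28 and 11.42 in MES (difference 4.39). Tbx6, which directs cells to paraxial fate, rose by 2.10, the Notch ligand Dll3 by 2.07, Msgn1 by 1.27 and Mesp2 by 1.13. Tcf15, a somite factor that is also present in ES cells, gave 9.40 and 9.81 against 7.61 and 7.28 and fell by 2.16. Somite and segmentation genes such as Meox1 (0.10), Pax3 (0.17), Uncx (0.08) and Hes7 (0.28) were not called. Without MES replicate 1 the difference of Mesp2 was 0.87 and not called.

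Blood and vessel progenitor genes rose in 8 of 20 cases and fell in 2. Etv2, the transient ETS factor at the top of the haemato-endothelial programme, gave 8.34 and 8.19 in ES cells and 11.10 and 11.19 in MES, a rise of 2.88 (adjusted p = 4.7e-09). Downstream, the endothelial cadherin Cdh5 rose by 1.90, Fli1 by 1.87, Runx1 by 1.78, Sox7 by 1.64, Lmo2 by 1.52 and Gata2 by 1.42. Tal1 (0.66), Gata1 (0.25) and Klf1 (-0.22), factors of committed blood, were not called. Cd34 fell by 2.32 and Pecam1, an adhesion molecule that ES cells also carry, by 1.12 (0.88 and not called without ES replicate 2). Among contractile genes 1 of 17 rose, the atrial light chain Myl4 by 1.59, and 3 fell. The smooth muscle genes Acta2 (12.61 and 12.30 against 8.47 and 8.43), Tagln and Cnn1 fell by 4.01, 3.07 and 2.19, and all of these are also made by cultured fibroblasts.

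**Figure D3:**
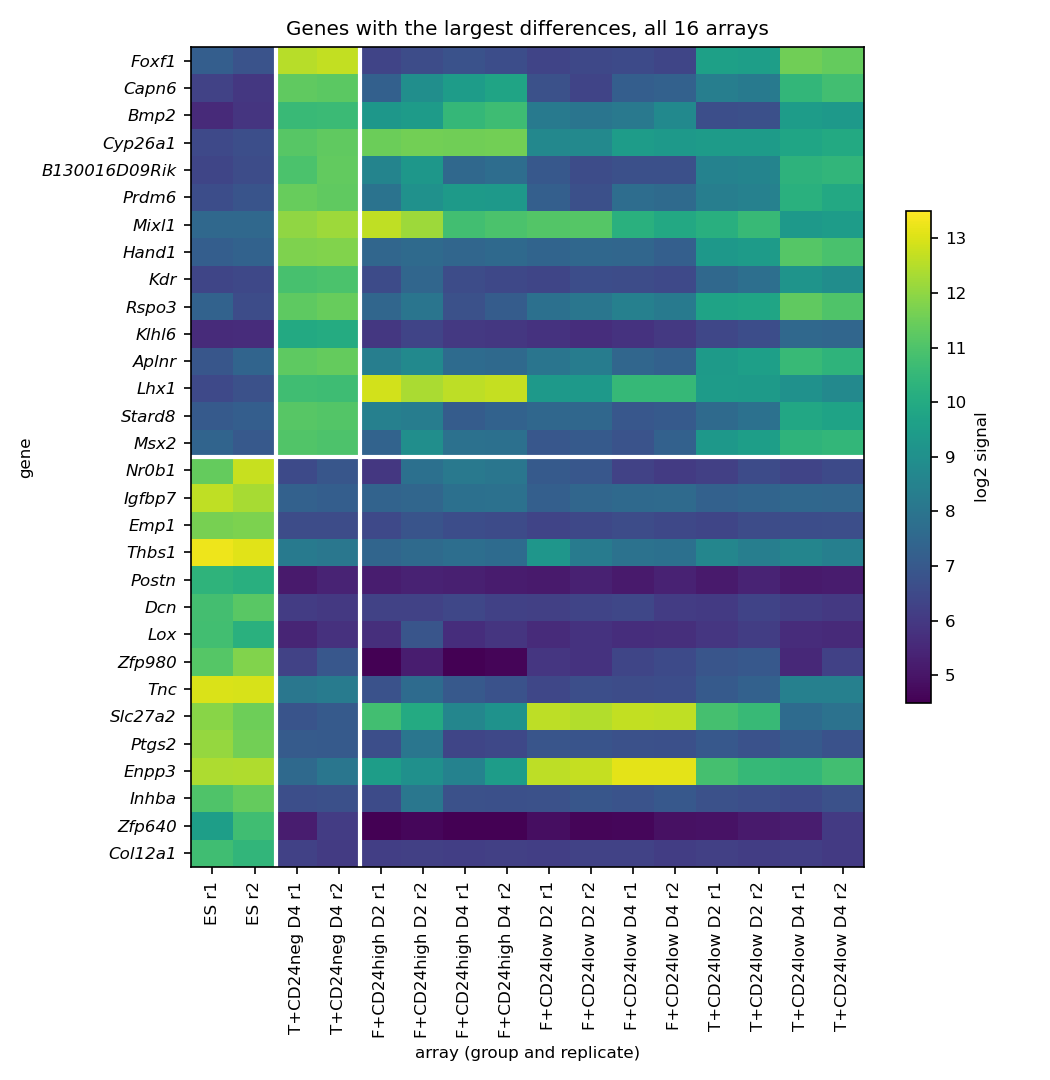
Log2 signal (colour) of the 15 genes with the highest and the 15 with the lowest differences between MES and ES cells, on all 16 arrays (columns, group and replicate), with white lines around the MES arrays and between the higher and the lower genes. Cyp26a1, Mixl1 and Lhx1 were also high in F+CD24high cells, and Postn, Dcn and Col12a1 were high on the 2 ES arrays only.

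Other genes at the upper end had varied roles. Capn6, a microtubule-associated calpain relative, gave 6.26 and 5.96 in ES cells and 11.29 and 11.23 in MES. Cyp26a1, the enzyme that clears retinoic acid at the posterior end of the embryo, gave 6.50 and 6.65 against 11.16 and 11.29. Prdm6, a smooth muscle regulator, gave 6.64 and 6.84 against 11.41 and 11.31. The differences were 5.15, 4.65 and 4.62. Aplnr, the apelin receptor of migrating mesoderm, rose by 4.16, Stard8 by 4.00 and Klhl6 by 4.37. B130016D09Rik, a transcript without an assigned role here, rose by 4.65. Of 15 genes of retinoic acid handling, Cyp26a1 was the 1 that rose, Crabp1 fell by 1.12 (0.87 and not called without ES replicate 1), and the synthesising enzymes Aldh1a1, Aldh1a2 and Aldh1a3 differed by 0.02, 0.06 and -0.01.

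Of 14 Bmp target genes 8 were higher and none was lower (median 1.25). The MES medium held Bmp4, but its part cannot be told apart from the other changes between the groups. Msx2, a homeobox gene switched on by Smad signals, gave 7.4 and 7.0 in ES cells and 11.04 and 10.98 in MES. Smad6, the pathway's feedback inhibitor, gave 7.43 and 7.23 against 9.98 and 10.29. The MES arrays lay above the ES arrays in both genes, as in 34.4% of all genes. Msx1 rose by 2.17, Id1 by 1.49, the pseudoreceptor Bambi by 1.43 and Id3 by 1.08, whereas Id2 (0.32), Id4 (0.09) and Smad7 (0.05) were not called. Of 15 ligands and antagonists, 4 rose and 1 fell. Bmp2 itself gave 5.56 and 5.88 against 10.61 and 10.63, a difference of 4.90 (adjusted p = 1.3e-08), and Bmp7, Bmp5 and the Bmp-binding protein Bmper rose by 3.15, 2.56 and 2.06. Bmp4 differed by 0.78 and was not called. The antagonist Grem1, which fibroblasts secrete, fell by 3.05. Id1 was not called without ES replicate 1 (1.14, adjusted p = 0.073 in limma), nor was Id3 without ES replicate 2 (0.92).

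Wnt targets rose in 9 of 15 cases and fell in 1 (median 1.27). Axin2, the standard feedback target, gave 8.02 and 8.39 in ES cells and 9.80 and 9.94 in MES. Lgr5 rose by 2.03, Apcdd1 by 1.67, the antagonist Dkk1 by 1.59, Sp8 by 1.33, Nkd1 by 1.27 and Lef1 by 1.18. Notum, an enzyme that inactivates Wnt proteins, fell by 1.14, a call lost without ES replicate 2 (-0.86). Among 30 ligands, receptors and modulators, 7 rose and 2 fell. Wnt5a, a ligand of cell movement in the streak, rose by 2.10 and Wnt2, a ligand of the allantois and heart field, by 1.35. The receptors Fzd4 and Fzd10 rose by 1.16 and 1.10, Fzd8 fell by 1.31 and Sfrp2, a decoy for Wnts, by 1.18 (not called without ES replicate 1, at -0.90).

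Targets of Nodal and activin split. Of 10 tested, 3 rose (Mixl1, Eomes and the Smad partner Foxh1, by 1.62) and 2 fell. Both Lefty inhibitors fell, Lefty2 from 10.28 and 10.55 to 6.36 and 7.10 and Lefty1 from 11.28 and 11.04 to 7.70 and 7.80. The median over the list was 0.04, equal to that over all genes. Fgf genes also split, with 3 of 19 higher and 4 lower. Fgf10, a mesenchymal ligand, gave 7.75 and 7.32 against 11.24 and 11.20 and rose by 3.69. Fgf4, the autocrine ligand of ES cells, fell by 2.58 and Fgf5, of the primed epiblast, by 1.27. The response genes Spry4 and Etv4 fell by 1.48 and 1.02, while Dusp6 differed by -0.19. Etv4 was not called without ES replicate 2 (-0.81) or without MES replicate 2 (-0.92).

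Notch pathway members rose in 7 of 16 cases and none fell (median 0.70). Hey2, a Notch target of the heart and vessels, gave 6.39 and 5.92 in ES cells and 8.27 and 8.25 in MES. Hes1 rose by 1.49, Hey1 by 1.36, Notch1 by 1.19, Notch3 by 1.11 and the feedback gene Nrarp by 1.03. Notch3 was not called without ES replicate 2 (0.80), nor Nrarp without ES replicate 1 (0.92). Cell guidance genes followed with 9 of 29 higher and 3 lower. The plexins Plxna4, Plxnd1 and Plxna2, receptors of semaphorins, rose by 2.59, 2.51 and 2.25, and the ephrins Efna3 and Efna1 by 2.05 and 1.90. The neuropilins Nrp2 and Nrp1 rose by 1.61 and 1.31 (Nrp1 at 0.97 and not called without ES replicate 2), and Epha2, a receptor abundant in ES cells, fell from 11.11 and 11.00 to 8.38 and 8.56.

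Of 37 Hox genes, which give cells their position along the body axis, 3 were higher and 1 lower. Hoxb1, the first Hox gene of the streak, gave 8.20 and 8.07 in ES cells and 10.40 and 10.46 in MES. Hoxb2 rose by 1.91 and Hoxd9 by 1.23, and Hoxc8 fell by 1.05 (adjusted p = 0.021 in limma). The Hoxc8 call was lost without ES replicate 1 (-0.63) and without either MES array (-1.02 and -1.07). The remaining 33 were not called. Cdx2, the caudal factor that opens posterior Hox expression, gave 6.66 and 6.65 against 9.44 and 9.61 and rose by 2.86 ± 0.09 (SE, adjusted p = 5.7e-09 in limma). Of 8 Cdx, Meis and Pbx genes it was 1 of 3 that rose, the Hox cofactors Meis2 and Meis3 being the others (2.30 and 1.22).

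Growth genes rose in 6 of 24 cases of the Igf and imprinted list and fell in 2. Igf2, a paternally expressed growth factor of embryonic mesoderm, gave 10.16 and 9.08 in ES cells and 12.27 and 12.25 in MES, so that ES replicate 1 lay between replicate 2 and MES. Igfbp4 rose by 2.79, Phlda2 by 1.49, Sgce by 1.40 and Dlk1 by 1.31, and Nnat fell by 1.56.

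Naive pluripotency genes fell almost throughout, 13 of 15, with a median difference of -2.59. Nr0b1 (Dax1), a nuclear receptor of the ES cell network, gave 11.36 and 12.73 in ES cells and 6.51 and 6.92 in MES, the lowest difference of the called genes at -5.33 ± 0.51 (SE, adjusted p = 1.7e-05 in limma). Zfp42 (Rex1) gave 9.95 and 10.72 against 6.12 and 6.36. Esrrb, an orphan receptor that sustains self-renewal, gave 9.70 and 10.46 against 6.80 and 6.93. For all of these ES replicate 2 was the higher, and the MES arrays lay below both, as in 26.7% of all genes. Dppa5a fell by 4.13, Nr5a2 by 2.98, Tfcp2l1 by 2.79, Dppa3 by 2.23, and the Krüppel-like factors Klf4, Klf5 and Klf2 by 1.57, 1.43 and 1.21. Prdm14 (-0.42) and Gbx2 (-0.79) were not called. Klf2 was not called without ES replicate 2 (-0.98), and Gbx2 was called without ES replicate 1 (-1.09) or without MES replicate 1 (-1.01).

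Within the core network the fall was uneven. Of 12 genes tested (13 listed) 9 were lower and none higher, with a median of -2.66. Sox2, partner of Oct4, gave 11.94 and 12.31 in ES cells and 8.88 and 9.07 in MES. Pou5f1 (Oct4) gave 12.47 and 12.59 against 11.24 and 11.22. Nanog gave 12.01 and 12.16 against 10.83 and 11.00. Sox2 thus fell by 3.15, and Pou5f1 and Nanog by 1.30 and 1.17. Dppa2 and Dppa4, paired chromatin regulators, fell by 4.41 and 3.11, Utf1 by 3.64 and the ligand Gdf3 by 3.21. Lin28a (0.39), Sall4 (0.32) and Tdgf1 (-0.29), which gastrulating epiblast also uses, were not called.

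Primed epiblast genes fell in 6 of 10 cases, among them Otx2 by 1.44 and Dnmt3b by 1.16, and Lef1 rose. Enzymes of DNA methylation fell in 4 of 8 cases with none higher. Dnmt3l, the cofactor of the de novo enzymes, gave 11.12 and 11.70 in ES cells and 7.14 and 7.39 in MES, and Tet2 gave 10.57 and 11.21 against 8.03 and 8.13. Tet1 fell by 1.24, and Dnmt1, the maintenance enzyme, differed by -0.06. Germline genes fell in 5 of 13 cases, Tdrd12 by 3.40, Ddx4 (Vasa) by 3.11, Sycp3 by 2.94, Mael by 2.74 and Sycp1 by 1.19 (0.98 and not called without ES replicate 2). Of 8 genes of germ cell specification 1 rose, the membrane protein gene Ifitm1 by 1.13, while Prdm1 (-0.76), Tfap2c (-0.51) and Nanos3 (-0.36) were not called.

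Ectoderm genes were lower in 4 of 12 cases and higher in none. Neurod1 fell by 2.81, Olig2 by 1.48, Tubb3 by 1.45 and Pax6 by 1.02 (0.73 and not called without ES replicate 1), and Sox1 differed by -0.14. Of 16 definitive endoderm genes 2 rose (Lhx1 and Cpm, a carboxypeptidase, by 2.20) and 3 fell (Trh at -3.26, Cldn6 at -2.55 and Otx2 at -1.44).

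At the lower end, 4 of the 15 genes with the lowest differences belonged to the fibroblast list (Postn, Dcn, Lox and Col12a1) and 1 to a pluripotency list (Nr0b1). The rest were on neither list, and whether their signal came from ES cells or feeders was not tested. Igfbp7, Emp1, Thbs1, Tnc, Ptgs2 and Inhba, most of them secreted or matrix-linked proteins, fell, with differences of -5.23, -5.10, -5.05, -4.81, -4.75 and -4.53. Igfbp7 gave 12.63 and 12.31 in ES cells and 7.31 and 7.18 in MES, and Thbs1 gave 13.29 and 13.10 against 8.23 and 8.07. Slc27a2, a fatty acid carrier, and Enpp3, a surface phosphodiesterase, fell by 4.77 and 4.60. The zinc finger genes Zfp980 and Zfp640 fell, with differences of -4.83 and -4.48. These belong to families of near-identical copies, whose signals one probe set may share. Matrix genes outside the extremes went both ways, with 4 of 23 higher and 5 lower. Hapln1, which links hyaluronan, rose by 1.26 and Fbn2 by 1.54, and Nid1 fell by 2.25. The basement membrane collagens Col4a1 and Col4a2 differed by 0.05 and -0.30.

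Epithelial genes lose expression where cells undergo an EMT. Of 29 epithelial genes tested (30 listed), 12 fell and 4 rose, with a median of -0.84. E-cadherin (Cdh1), the adhesion molecule of the epiblast, gave 12.37 and 12.43 in ES cells and 10.36 and 10.46 in MES, a fall of 1.99 (SE 0.09, adjusted p = 6.1e-08 in limma). Cldn6 gave 11.63 and 11.14 against 8.94 and 8.73, and Ocln gave 8.60 and 8.68 against 6.45 and 6.36. All of these are components of adherens or tight junctions. Rab25 fell by 2.45, Grhl2, a master regulator of epithelia, by 2.19, Epcam by 1.80 and the splicing factor Esrp2 by 1.79. The 4 that rose were filament and desmosome genes. Krt18 gave 9.70 and 9.16 against 11.96 and 11.96, and Krt8 gave 10.71 and 10.20 against 12.76 and 12.72. Desmoplakin (Dsp) and Krt19 rose by 1.94 and 1.70, while the desmosomal cadherins Dsg2 (0.25) and Dsc2 (0.75) were not called and plakoglobin (Jup) fell by 1.19.

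EMT factors themselves were divided, 4 of 10 higher and 3 lower. On ES replicate 1, the array richer in fibroblast transcripts, 9 of the 10 were higher than on replicate 2 (median difference 0.46). How much of the 3 falls reflects feeder RNA was not tested. Snai1, the repressor of Cdh1 in the streak, gave 8.72 and 8.36 in ES cells and 10.77 and 10.66 in MES, a rise of 2.18 (SE 0.15, adjusted p = 1.6e-06 in limma). Zeb2 gave 8.16 and 7.98 against 9.42 and 9.52. With Mesp1 and Mesp2 these were the 4 that rose. Prrx1, Twist2 and Snai2 fell, with differences of -3.62, -2.26 and -2.07, and Twist2 is also on the fibroblast list. Snai2 gave 10.20 on ES replicate 1, 9.65 on replicate 2, and 7.70 and 8.01 in MES. Zeb1 (0.25) and Twist1 (0.73) were not called. Without ES replicate 1 Twist1 was called higher (1.17), and without MES replicate 1 Mesp2 was not called (0.87). Of 18 mesenchymal genes 6 rose and 1 fell, with a median of 0.12, and 17 were higher on ES replicate 1 than on replicate 2. N-cadherin (Cdh2) rose by 1.43, the chemokine receptor Cxcr4 by 3.13, Tgfb2 by 2.92, the hyaluronan synthase Has2 by 1.57 and Pdgfrb by 1.17. Vimentin (Vim), Fn1 and Sparc, which fibroblasts also make, differed by 0.04, 0.40 and -0.12. Has2 was not called without ES replicate 2 (1.38) or MES replicate 2 (1.47), nor Pdgfrb without ES replicate 2 (0.87).

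**Figure D4:**
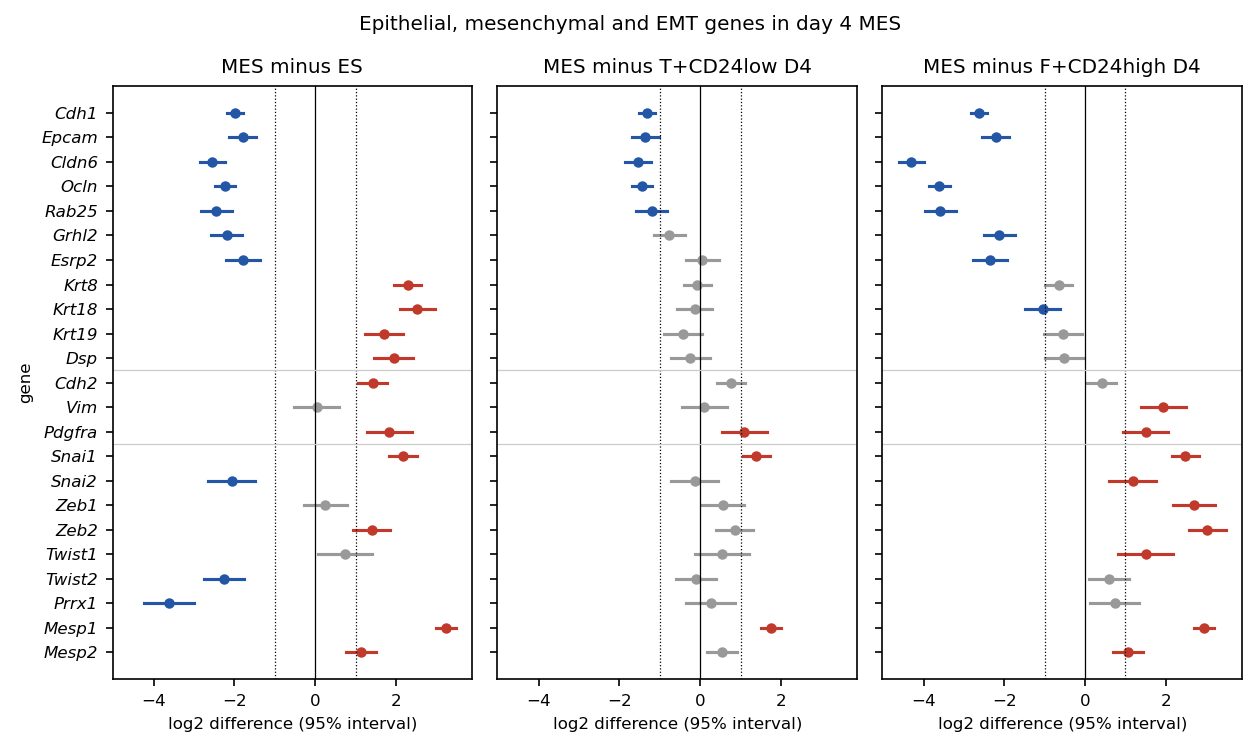
Log2 difference (points) and its 95% interval (bars, limma) of 23 epithelial, mesenchymal and EMT genes in day 4 MES, against ES cells (left), day 4 T+CD24low cells (middle) and day 4 F+CD24high cells (right). Red and blue mark genes called higher and lower in MES, grey genes not called, dotted lines a difference of 1. Cdh1, Cldn6 and Ocln were lower in MES in all 3 panels, and Krt8 and Krt18 were higher against ES cells only.

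Setting MES against other day 4 cells avoids the ES arrays. Day 4 T+CD24low cells came from the same mesoderm culture, and 69 genes (0.369%) were higher in MES and 151 (0.807%) lower. F+CD24high cells of day 4, from the endoderm culture with 12 ng/ml activin A, differed from MES by 675 higher (3.61%) and 797 lower genes (4.26%). The 3 comparisons share the MES arrays, so their values are given side by side. Cdh1 was lower in MES by 1.31 than in T+CD24low cells and by 2.63 than in F+CD24high cells. Epithelial genes were lower in 11 of 29 cases against T+CD24low and 21 of 29 against F+CD24high cells, and none was higher in either.

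Snai1 was higher in MES by 1.39 against T+CD24low and 2.48 against F+CD24high cells. Snai2, which fell against ES cells, was higher by 1.18 against F+CD24high cells and differed by -0.14 from T+CD24low cells. Of the 10 EMT factors 7 were higher than in F+CD24high cells and none was lower, with Zeb2 at 3.03, Zeb1 at 2.69 and Twist1 at 1.5. Vim, which differed by 0.04 from ES cells, was 1.94 higher than in F+CD24high cells.

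Mesoderm factors also set MES apart from T+CD24low cells, 7 of 19 lateral and cardiac genes being higher and none lower. Kdr was higher by 1.88, Gata4 by 1.51, Foxf1 by 1.14 and Pdgfra by 1.09, and of streak genes Mixl1 by 2.65, Eomes by 2.06 and Mesp1 by 1.75. Hand1 (0.77) and Rspo3 (0.20) were not called. Several genes ran the other way, and 8 of 37 Hox genes and Cdx2 (by 1.30) were lower in MES. Against F+CD24high cells Foxf1 was higher by 5.91, whereas Lhx1 was lower by 1.92, Gata6 by 1.13 and Dkk1 by 4.15. Of 16 endoderm genes 13 were lower in MES than in F+CD24high cells. Of the 26 fibroblast genes none was lower in MES in either comparison. In MES 1 was higher than in T+CD24low cells and 4 were higher than in F+CD24high cells. Over all genes 0.807% and 4.26% were lower, and at these shares a list of this size would hold about as few.

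Pluripotency genes behaved differently against F+CD24high cells. There Pou5f1 was higher in MES by 2.98, Sox2 by 1.79 and Nanog by 1.33, and 6 of 12 core genes were higher with none lower. Against T+CD24low cells Sox2 was lower by 1.44, and Pou5f1 and Nanog differed by -0.80 and -0.87 without being called.

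Sterol synthesis genes were among those that rose against ES cells. Of 13 genes of the cholesterol pathway tested (16 listed) 7 were higher and none lower, with a median of 1.06. The 6 that were not called differed by -0.01 to 0.96. Mvd, which makes isopentenyl diphosphate, gave 9.32 and 9.17 in ES cells and 11.02 and 11.02 in MES, and Lss, which closes the sterol ring, gave 10.28 and 10.04 against 11.72 and 11.76. Hmgcs1, the synthase at the start of the pathway, gave 11.57 and 11.17 against 12.53 and 12.56. Nsdhl, Cyp51, Sqle and the regulator Srebf2 rose by 1.39, 1.21, 1.06 and 1.06. Hmgcs1 (0.97) and Srebf2 (0.99) were not called without ES replicate 2, nor Sqle without MES replicate 2 (0.98). Limma called no gene of this list between MES and T+CD24low or F+CD24high cells of day 4. There 1 of the 13 and 3 of the 13 had an unadjusted p below 0.05. Over all genes 0.369% were higher and 0.807% lower against T+CD24low cells, and 3.61% and 4.26% against F+CD24high cells. At these shares a list of this size would hold about as few. ES cells were kept in serum and all the sorted groups in a defined medium, and this difference and the differentiation cannot be told apart.

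Promoters of these genes were searched for the sterol response motif TCACNCCAC, on either strand, in the 250 bases before and 50 bases after the start as RefSeq gives them (build GRCm38.p6). The table held 10 of the 13 genes, 6 of them risen ones, and 1 gene, Hmgcs1, held the motif. Of all 32851 promoters 1.24% held it. The stretch of the Hmgcs1 promoter around it, shown because it is the 1 match in the group, lies at chr13:119690204-119690232 on the plus strand, with the motif in capitals 137 to 129 bases before the start.
Hmgcs1: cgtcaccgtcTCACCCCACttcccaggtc

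Probe sets of microRNA genes were also on the array. They measure the precursor transcript, not the mature microRNA. Of 239 tested, 6 (2.51%) were higher and 2 (0.837%) lower, against 2.59% and 4.5% over all genes, so that microRNA genes were not called more often than others. The called ones are given as single values. Mir717, which lies within Gpc3, gave 6.82 and 6.51 in ES cells and 9.78 and 9.66 in MES (difference 3.06, adjusted p = 1.5e-06), and Gpc3, a glypican read after its values were seen, rose by 2.67. Mir127 and Mir136, neighbours in the imprinted Dlk1 region, rose by 1.28 and 1.07, and Mir7-1 by 1.09, whereas its host Hnrnpk differed by -0.04. Mir136 was not called without MES replicate 2 (0.77), nor Mir7-1 without ES replicate 2 (0.97). Mir363 fell by 1.60 on uneven ES arrays (6.30 and 7.64), a call lost without ES replicate 2 (-0.92) or without MES replicate 1 (-1.33), and the host transcript Mir100hg fell by 1.58.

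The miR-302 cluster, which lies inside Larp7, is a family active in ES cells and the early epiblast. Mir302d gave 5.55 and 6.77 in ES cells and 7.32 and 7.96 in MES (difference 1.48, adjusted p = 0.041), and Mir302c gave 5.00 and 5.61 against 6.44 and 7.01 (1.42, adjusted p = 0.048). Mir302a (1.56), Mir302b (0.91) and Mir367 (0.85) were not called, although Mir302a was called when probe sets were averaged per gene (1.56, adjusted p = 0.020 in limma). Replicates of the cluster were far apart and both calls lay near the threshold. Mir302c was not called when any 1 of the 4 arrays was left out (1.12 to 1.73), nor Mir302d without ES replicate 1 (0.87) or either MES array (1.16 and 1.80), and Larp7 differed by 0.22. Mature sequences from RefSeq (GRCm38.p6) are printed for the called genes and for Mir302b, 1 arm of each hairpin, with bases 2 to 8, the seed that pairs with targets, in capitals. MiR-302b-3p and miR-302d-3p have the same seed, the seed of 5 of the 1738 mature sequences in the table. In miR-302c-3p, as RefSeq starts it, the same letters AAGUGCU begin at base 1. The 5p arms of Mir302b, Mir302c and Mir302d, not printed, share the seed CUUUAAC, and miR-363-3p has the seed of miR-367-3p, AUUGCAC.
miR-302b-3p: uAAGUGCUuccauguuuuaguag
miR-302c-3p: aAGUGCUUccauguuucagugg
miR-302d-3p: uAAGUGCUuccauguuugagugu
miR-717: cUCAGACAgagauaccuucucu
miR-127-3p: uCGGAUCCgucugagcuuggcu
miR-136-5p: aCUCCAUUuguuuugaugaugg
miR-7a-5p: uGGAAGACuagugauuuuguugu
miR-363-3p: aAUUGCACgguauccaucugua

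Limma called none of 14 genes of mitosis and DNA replication (2 at an unadjusted p below 0.05), with differences of -0.24 to 0.20, and at the shares over all genes (2.59% higher, 4.5% lower) a list of this size would hold about as few. Of 13 G1 regulators Myc rose by 1.06 (0.92 and not called without ES replicate 1) and cyclin E1 (Ccne1) fell by 1.18. Of 20 genes of glycolysis and hypoxia the aldolase gene Aldoc and Vegfa rose by 1.35 and 1.34 and the kinase Pdk1 fell by 1.87. Of 20 interferon-inducible genes 1 rose and 3 fell. Usp18, a protease of that response, gave 7.03 and 7.4 in ES cells and 10.84 and 10.88 in MES (difference 3.65). Ddx58, Ifit3 and B2m fell by 1.79, 1.56 and 1.18.

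**Figure D5:**
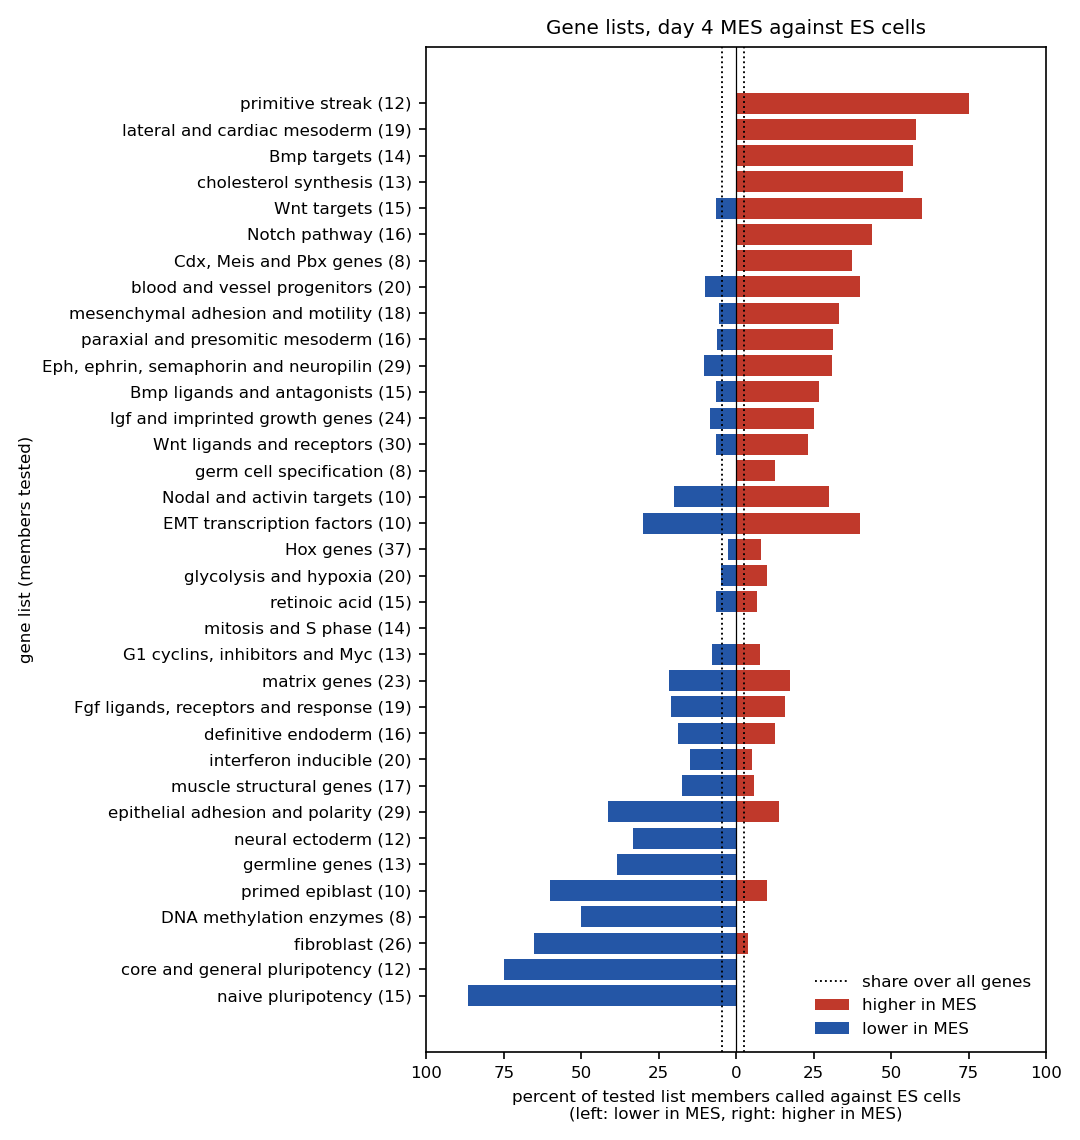
Percent of the tested members of 35 gene lists (members tested in brackets) called lower (blue, left) or higher (red, right) in day 4 MES than in ES cells, with dotted lines at the shares over all genes (2.59% higher, 4.5% lower). Primitive streak, lateral mesoderm, Bmp target and cholesterol genes rose with none falling, and naive and core pluripotency genes fell with none rising.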

How the data were processed

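RNA was hybridised to Affymetrix Mouse Gene ST 1.0 arrays, and the deposited values are log2 signals that the authors made by RMA with oligo 1.48.0 (background correction, quantile normalisation and summary per probe set) over all 16 arrays. As in the study's methods, the 32000 probe sets of highest mean among 35556 were kept. Limma 3.58.1 in R 4.3.3 was fitted with 1 mean per group over 8 groups, and p-values were adjusted by Benjamini-Hochberg over all 32000 probe sets. A call needed a log2 difference above 1 and an adjusted p below 0.05, without trend or weights. Symbols came from the platform annotation: 20427 kept probe sets had a single symbol, 1400 had several and 10173 had none, and the brightest probe set stood for each of 18716 genes. The fit was checked on simulated data.

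Genes and lists were chosen with earlier results of these data known. Named were the 15 highest and 15 lowest called genes among those whose arrays did not overlap between the groups. Also named were up to 6 called members of each of 36 lists, other list members where needed, and those stated to be chosen after their values were seen. The level of T was not analysed here. Replicate numbers were not used as a block, since deviations of same-numbered samples correlated at 0.15 between ES and MES and from -0.2 to 0.25 over 28 pairs of groups. Alternatives were other filters, thresholds, fits and leaving out each array.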

Additional observations from a re-analysis of the deposited data

How the results depend on the processing

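The 484 higher and 843 lower genes numbered 393 and 467 with the 16000 brightest probe sets, where fewer genes were tested, so that the share of higher among called genes went from 36.5% to 45.7%. Without a filter there were 483 and 850, with only the 4 arrays 475 and 792, with a mean-variance trend 484 and 844, and with probe sets averaged 481 and 839. By adjusted p alone there were 2339 and 2533, above a difference of 2 there were 103 and 256, and by limma's treat test 169 and 365. Leaving out 1 array gave 461 to 547 higher and 827 to 883 lower genes, or 547 and 855 without ES replicate 1, the array richer in fibroblast transcripts. The 220 genes between MES and T+CD24low cells became 860, 12 and 17 under adjusted p alone, a difference above 2 and treat, and 172 to 234 without 1 array. The 1472 between MES and F+CD24high cells became 5045, 434 and 665, and 1426 to 1500.

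Same-numbered replicates could not be shown to be paired. With the replicate number as a block (replicate block) there were 483 higher and 843 lower genes against ES cells, 221 against T+CD24low and 1475 against F+CD24high cells, and of the 255 named genes Mir302c was the 1 whose call changed (adjusted p = 0.060).

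Among the 255 named genes no called difference changed sign in these settings. A threshold of 2 took away 98 calls and treat 79. Leaving out ES replicate 2 took away 15 calls and ES replicate 1 took away 9. Dim probe sets and 2 arrays a group limit the precision, and the 16000-probe-set setting left 77 named genes untested.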
